A study of Homo sapiens with 16 samples.

Results

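The comparison described here is of LNCaP cells given 6 Gy of ionizing radiation with mock-treated LNCaP cells, all in vehicle. It lies within the second of 2 experimental batches. It uses 4 of the 16 libraries of the series, chosen by their labels: vehicle replicates 3 and 4, and irradiated replicates 3 and 4. The controls are labeled mock plus vehicle and are called vehicle below. LNCaP is an established human prostate cancer line, derived from a lymph node metastasis, that grows with androgen. The control cells stood in the solvent DMSO for 90 min. The irradiated cells stood in the same solvent for 30 min, received 6 Gy, and were collected 60 min later, so every one of the 4 libraries carries the solvent. The other libraries of batch 2 come from cells in 10 µM enzalutamide, an androgen receptor antagonist, without or with 6 Gy, and those of batch 1 from mock-treated and irradiated cells. The batch 1 libraries are used only where the response was tested for a difference. The enzalutamide libraries are used for that too, and they share in the estimate of the spread, and of the replicate block, wherever a model of all 8 libraries of batch 2 is named. The line stands for 1 cell model, and nothing in the labels says whether replicates 3 and 4 were separate cultures, so p-values measure the spread between these libraries, which may be technical.

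PRO-seq is a nuclear run-on assay that labels the ends of RNAs still held by engaged RNA polymerases, so a count per gene reads ongoing transcription and not the stock of RNA. Radiation breaks DNA, and the kinase ATM and its partners stabilize the transcription factor p53, which binds response elements in its target genes and raises their transcription. The best known of these targets stop the cell cycle (CDKN1A), destroy p53 again (MDM2), start cell death (BBC3, BAX, FAS) or serve DNA repair (DDB2, XPC). Genes of mitosis are read mainly late in the cell cycle, and many of them carry in the promoter a CHR element and a CCAAT box, where the DREAM and MuvB complexes and the factor NF-Y bind.

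The 4 libraries held 16428667 and 19469608 counts in vehicle and 15201853 and 12928190 after 6 Gy. Mitochondrial genes took 0.66% to 0.934% of them. Replicates differed by more than sampling noise, with a chi-square per degree of freedom of 3.56 between the vehicle libraries and 3.10 between the irradiated ones. Levels are given as CPM, counts scaled to a common library total, with TMM as the library size correction. The prostate luminal identity of the line was visible: 10 of 10 luminal markers were tested, with a summed level of 4010 and 3694 CPM in vehicle and 3605 and 3230 CPM after 6 Gy. Markers of basal, neuroendocrine, stromal and endothelial cells, of which 2 of 4, 1 of 5, 5 of 5 and 3 of 3 were tested, summed to between 5.53 and 25.3 CPM per list in every library, and the neuroendocrine marker CHGA was at 0 in all 4. The immune list summed to 49.2 to 61.1 CPM, nearly all of it from CD68.

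After 6 Gy transcription shifted in both directions. In the irradiated libraries many listed p53 target genes stood higher, some of them several-fold. Many genes of mitosis and replication-dependent histone genes stood lower. Of 27916 genes tested with edgeR, 453 passed an adjusted p of 0.05, which is 1.62% of those tested: 277 were higher (0.992%) and 176 lower (0.63%). Which direction held more genes depended on the fit: without irradiated replicate 4 there were 316 higher and 418 lower, and with no filter on low counts 391 and 445. At an unadjusted p under 0.05 there were 3631 genes. The change was at least 2-fold for 97 of the higher and 31 of the lower genes, and the median log2 fold change was 0.78 and -0.67. In all 453 genes the vehicle and irradiated libraries did not overlap, which is no further support, since the same libraries chose these genes. Summed over the 277 higher genes, the level was 12683 and 13372 CPM in vehicle and 23729 and 23745 CPM after 6 Gy. Over the 176 lower genes it was 11589 and 11417 CPM in vehicle and 7776 and 7017 CPM after 6 Gy. Both sums were taken over genes chosen by the test and are a description.

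**Figure D1:**
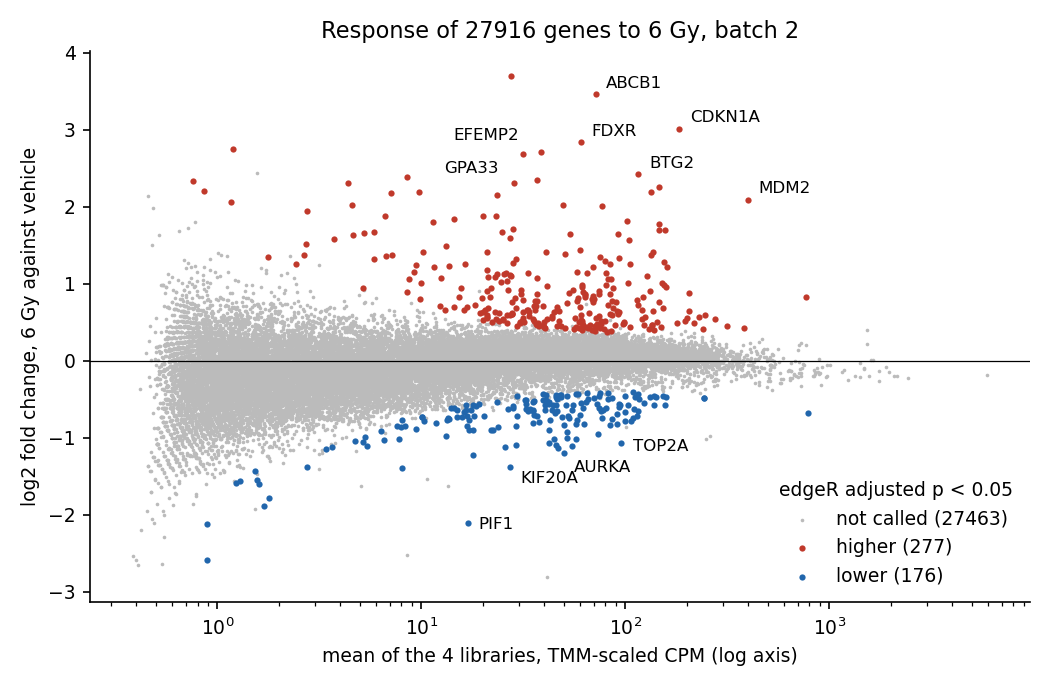
Log2 fold change after 6 Gy (y axis) against the mean level of the 4 libraries in TMM-scaled CPM (x axis, log scale), 1 point per gene tested. Red points are the 277 genes called higher, blue points the 176 called lower by edgeR, and the named points show that the rises reach further from 0 (CDKN1A 3.02) than the falls (PIF1 -2.10).

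Same-numbered libraries deviated together, so the test was also made with the replicate number as a block. With all 8 libraries of batch 2 in the blocked model, 1315 of 28651 genes passed (4.59%), 733 higher (2.56%) and 582 lower (2.03%), and 275 of the 277 and 176 of the 176 genes called above were among them. With the block in the 4 libraries alone, 2423 genes passed (8.68%). That fit has 1 residual degree of freedom and gives all genes practically the same spread, so blocked values below come from the blocked 8-library model. Without the block the 8-library model called 213 of the higher and 101 of the lower genes, and DESeq2 called 249 and 109 of them.

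The largest rises were taken among called genes with at least 50 counts on average and no overlap between groups. These were ENSG00000286886, ABCB1, CDKN1A, FDXR, EFEMP2, GPA33, BTG2, RFX8, SPATA18 and KRT39. They are of several kinds. CDKN1A, FDXR, BTG2 and SPATA18 are p53 targets and rose evenly in both irradiated libraries. ENSG00000286886, a gene without a symbol, stood at 4.51 and 3.42 CPM in vehicle and 44.3 and 58.6 CPM after 6 Gy (log2 fold change 3.70, SE 0.17, edgeR adjusted p 4.27e-09), with both irradiated libraries far above both controls. ABCB1, the P-glycoprotein pump that carries drugs out of cells, went from 11.2 and 12.5 CPM to 104 and 159 CPM (3.46, SE 0.168, edgeR adjusted p 4.93e-09). Of 8 ABC transporters of drugs tested it was the one that rose (12.5%, against 0.992% of all genes), and the list's median was -0.17.

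The other 4 of these 10 genes were uneven between the irradiated libraries. EFEMP2, an extracellular matrix protein, stood at 9.81 and 10.5 CPM in vehicle and at 21.4 and 112 CPM after 6 Gy. GPA33, a cell surface antigen of the gut, stood at 7.58 and 9.39 CPM in vehicle and at 83.5 and 25.8 CPM after 6 Gy, with the high value in the other replicate. RFX8 had 2.77 and 2.76 CPM in vehicle and 23.1 and 5.45 CPM after 6 Gy, and KRT39, a keratin, had 1.63 and 1.28 CPM and then 2.56 and 12.1 CPM. That the groups did not overlap was a condition for naming these genes, and the size of the rise rests on 1 library in each. RFX8 did not pass without irradiated replicate 3 (log2 fold change 0.98, edgeR adjusted p 0.0638) and KRT39 did not pass without irradiated replicate 4 (0.84, edgeR adjusted p 0.236). EFEMP2, RFX8 and KRT39 did not pass with DESeq2 (adjusted p 0.253 to 0.41).

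The 5 lists of protein-coding p53 targets together held 77 tested genes, of which 44 rose, 0 fell and 33 did not pass, against 0.992% of all genes higher, and their median log2 fold change was 0.64 against -0.01 over all genes tested. The summed level of the 5 lists was 3812 and 3852 CPM in vehicle and 7495 and 7177 CPM after 6 Gy. The lists were written with earlier results of these data known, so their direction is no independent evidence.

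Among targets in cell cycle arrest, 9 of 16 rose and 0 fell (median 0.66). CDKN1A, the inhibitor p21 of cyclin-dependent kinases, stood at 36.6 and 44.3 CPM in vehicle and at 306 and 349 CPM after 6 Gy, an 8.09-fold rise (log2 fold change 3.02, SE 0.114, edgeR adjusted p 7.62e-10). BTG2, an antiproliferative factor, went from 37.8 and 35.2 CPM to 199 and 192 CPM (2.42, SE 0.0947, edgeR adjusted p 7.62e-10). NINJ1, a membrane protein that acts in cell rupture, rose 3.51-fold, and PLK3, a stress-activated Polo-like kinase, rose from 12.9 and 10.8 CPM to 34.9 and 40.6 CPM. GADD45A, CCNG1, TP53INP1, E2F7 and ZNF385A made up the 9. PLK2, SFN and TOB1 had log2 fold changes between -0.05 and 0.05 and did not pass.

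Feedback on p53 was the list with the highest median, 1.06, with 7 of 13 genes higher and 0 lower. MDM2, the ubiquitin ligase that marks p53 for destruction, stood at 150 and 154 CPM in vehicle and at 676 and 624 CPM after 6 Gy (log2 fold change 2.09, SE 0.0979, edgeR adjusted p 4.58e-09). PPM1D, the phosphatase WIP1 that turns off damage kinases, went from 75.3 and 74.3 CPM to 206 and 194 CPM. PHLDA3, an inhibitor of AKT, rose 4.04-fold and RPS27L, a ribosomal protein paralog, 3.12-fold. In each of these the libraries of a group lay close together and the groups far apart. MDM4, the partner of MDM2, had a log2 fold change of 0.08 and the ligases COP1 and RCHY1 had 0.03 and 0.07, and none of the 3 passed.

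Among targets in cell death 11 of 21 rose and 0 fell (median 0.73). BBC3, the BH3-only protein PUMA, was at 9.51 and 9.59 CPM in vehicle and at 47.2 and 47.5 CPM after 6 Gy (log2 fold change 2.31, SE 0.115, edgeR adjusted p 6.65e-09). FAS, a death receptor, went from 9.45 and 10.3 CPM to 36.3 and 36.8 CPM, and BAX, a pore-forming protein of the mitochondrial membrane, from 11.1 and 15.1 CPM to 43.5 and 43.0 CPM. The TRAIL receptors TNFRSF10A (0.86), TNFRSF10B (0.88) and TNFRSF10D (1.22) rose and TNFRSF10C (-0.03) did not pass. BCL2L1, BAK1, BID and APAF1, further parts of the mitochondrial death machinery, had values between -0.01 and 0.29 and did not pass. ACTA2, a smooth muscle actin and a stromal marker, also rose, from 3.55 and 4.39 CPM to 9.24 and 11.4 CPM, and its span overlaps that of FAS, so that the reads of the pair cannot be told apart without knowledge of strand.

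Among targets in metabolism, mitochondria and redox control 14 of 21 rose and 0 fell (median 0.72). FDXR, the ferredoxin reductase of mitochondria, went from 13.6 and 16.1 CPM to 112 and 102 CPM (log2 fold change 2.84, SE 0.114, edgeR adjusted p 7.62e-10). SPATA18, which acts in mitochondrial quality control, went from 11.2 and 12.96 CPM to 60.3 and 63.5 CPM. SESN2, a sestrin that restrains mTORC1, rose 3.44-fold and GDF15, a secreted stress hormone, 3.14-fold. TIGAR, GLS2, ACER2, CPT1C and RRM2B were also higher, while SCO2, PRKAB1 and ALDH4A1 did not pass (-0.18 to 0.36).

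In DNA repair 9 of 13 listed p53 targets rose and 0 fell (median 0.72). DDB2, which recognizes ultraviolet lesions, went from 46.6 and 49.1 CPM to 240 and 199 CPM (log2 fold change 2.20, SE 0.106, edgeR adjusted p 4.93e-09). XPC, the other damage sensor of nucleotide excision repair, went from 61.0 and 64.3 CPM to 157 and 142 CPM. POLH, a translesion polymerase, rose 2.51-fold and GADD45A 2.62-fold. LIG1, the replicative DNA ligase, and PCNA, the sliding clamp, rose 1.86-fold and 1.803-fold.

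**Figure D2:**
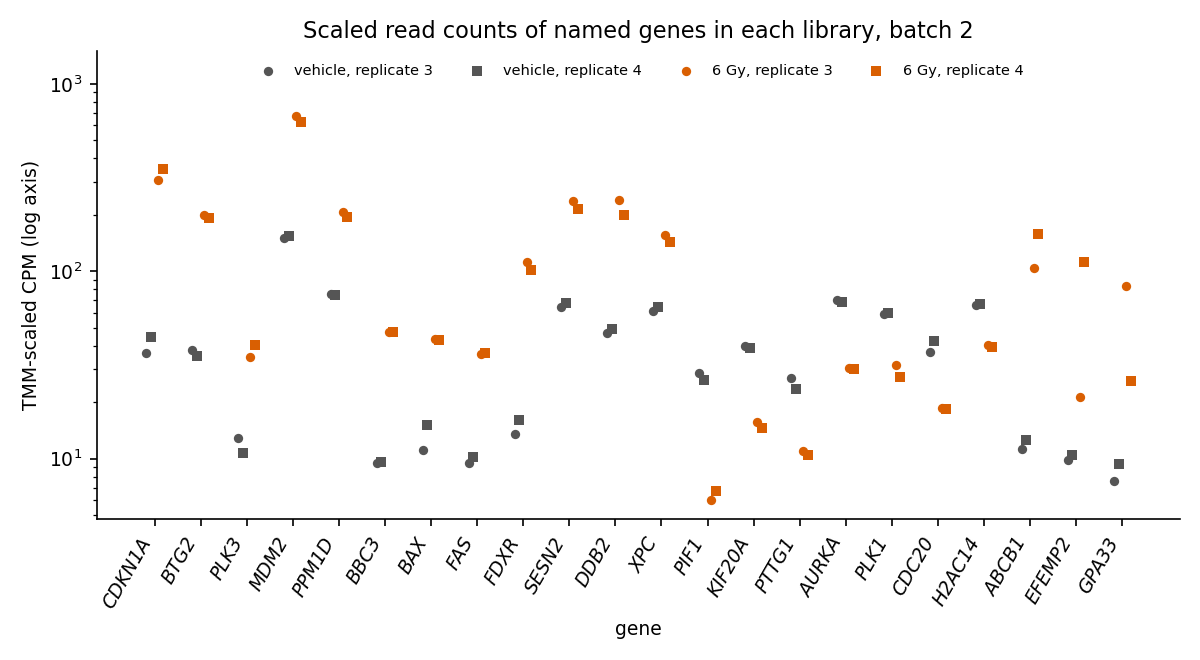
Level of 22 named genes in each of the 4 libraries, in TMM-scaled CPM (y axis, log scale), with vehicle in gray and 6 Gy in orange, circles for replicate 3 and squares for replicate 4. In the p53 targets and the mitotic genes the 2 libraries of a group sit together, as for CDKN1A at 306 and 349 CPM after 6 Gy, while EFEMP2 (21.4 and 112 CPM) and GPA33 (83.5 and 25.8 CPM) are split after 6 Gy.

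Of the long noncoding RNAs reported as p53 targets, 4 of 11 tested rose (36.4%, against 0.992% of all genes) and 0 fell (median 0.40). With the block 6 rose, where 2.56% of all genes did, and with DESeq2 3 rose. The 4 were DINOL, MIR34AHG, PURPL and TP53TG1. MIR34AHG, the host transcript of the microRNA miR-34a, stood at 70.4 and 77.4 CPM in vehicle and at 196 and 188 CPM after 6 Gy (log2 fold change 1.38, SE 0.0923, edgeR adjusted p 2.08e-07). LNCTAM34A, which overlaps it in span, went from 40.8 and 40.3 CPM to 91.4 and 87.4 CPM. The mature miR-34a-5p is shown because its precursor lies inside the host's span on chromosome 1 (chr1:9151735-9151756, minus strand, GRCh38.p14, RefSeq), with the seed, bases 2 to 8, in capitals. A count on the host gene says nothing of the mature form.
hsa-miR-34a-5p: uGGCAGUGucuuagcugguugu
PURPL, a noncoding RNA that lowers p53 levels, had 110 and 69.9 CPM in vehicle and 268 and 169 CPM after 6 Gy, so both replicates rose by a like factor from different levels. It passed with edgeR (log2 fold change 1.29, SE 0.191, adjusted p 0.00104) but not with DESeq2 (adjusted p 0.124). DINOL, whose span overlaps that of CDKN1A, stood at 1.203 and 1.07 CPM in vehicle and 4.99 and 3.76 CPM after 6 Gy.

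The p53 consensus, searched by its name on both strands in RefSeq windows from 250 bases before to 50 after the start of a gene, was present in 5 of the 15240 windows of tested genes, and 2 of these belong to genes that rose, LNCTAM34A and PURPL. Both stretches are printed below because they are the only windows of risen genes with the full consensus, which is in capitals (GRCh38.p14, plus strand, chr1:9182129-9182178 and chr5:27472150-27472199). Of all 277 risen genes, 181 had a window. A match is a description of the letters and no measure of binding.
LNCTAM34A: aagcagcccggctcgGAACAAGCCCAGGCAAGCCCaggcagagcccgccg
PURPL: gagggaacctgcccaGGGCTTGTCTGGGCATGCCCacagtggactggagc

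The list of the p53 family, its kinases and cofactors gave 0 calls of 14 in either direction (median 0.07), and 0 with the block. ATM, the kinase that senses double-strand breaks, was at 101 and 97.9 CPM in vehicle and 109 and 104 CPM after 6 Gy (0.10, SE 0.088, edgeR adjusted p 0.678).

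Genes of mitosis were lower after 6 Gy. The 5 mitotic lists held 102 tested genes, of which 45 fell, 1 rose and 56 did not pass, against 0.63% of all genes lower, with a median log2 fold change of -0.36. With the block 56 fell and 3 rose, where 2.03% and 2.56% of all genes did. Their summed level was 7262 and 7074 CPM in vehicle and 5894 and 5405 CPM after 6 Gy. In bulk libraries a smaller share of cells in the last phases of the cycle and less transcription in each such cell cannot be told apart.

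The 10 largest falls were taken among called genes with at least 50 counts on average and no overlap between groups. Of these, PIF1, KIF20A, PTTG1, AURKA, PRR11, CDCA3 and CENPE are cell cycle genes, though PIF1, PRR11 and CDCA3 stand in no mitotic list. PIF1, a DNA helicase that acts at telomeres and stalled forks, fell most, from 28.5 and 26.2 CPM to 6.00 and 6.76 CPM (log2 fold change -2.10, SE 0.145, edgeR adjusted p 2.63e-07). KIF20A, a kinesin of the central spindle, went from 39.8 and 38.9 CPM to 15.7 and 14.5 CPM (-1.38, SE 0.114, edgeR adjusted p 2.13e-06). PRR11, a cell cycle gene, went from 63.0 and 65.9 CPM to 30.3 and 28.6 CPM, and CDCA3, which helps to trigger mitotic entry, from 33.8 and 37.0 CPM to 18.1 and 14.4 CPM. Each of these genes fell in both replicates, CDCA3 by log2 changes of -0.89 in replicate 3 and -1.33 in replicate 4. CPED1, ATP1B2 and H2BC27P, the other genes among these 10, had nearly the same log2 fold changes in the 8-library model (-1.39, -1.14 and -1.11), where they did not pass without the block (edgeR adjusted p 0.0504 to 0.0886) and passed with it (0.000289 to 0.00563). CPED1 had 7.46 and 15.7 CPM in vehicle, and without vehicle replicate 4 its log2 fold change was -0.74 (edgeR adjusted p 0.224). Without vehicle replicate 3 ATP1B2 (edgeR adjusted p 0.294) and H2BC27P (0.146) did not pass, and without irradiated replicate 3 their adjusted p-values were 0.0802 and 0.0568.

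By role, the spindle list had 19 of 26 genes lower, 0 higher and all 26 values below 0 (median -0.55). DLGAP5, HMMR and PSRC1, which organize spindle microtubules, had log2 fold changes of -1.07, -1.01 and -1.01. HMMR went from 78.9 and 74.8 CPM to 39.0 and 37.2 CPM. Among mitotic kinases and the spindle checkpoint 10 of 17 fell and 0 rose (median -0.57). AURKA, the Aurora A kinase of the spindle poles, went from 70.5 and 68.8 CPM to 30.6 and 30.0 CPM (-1.20, SE 0.0981, edgeR adjusted p 1.99e-06). PLK1, the Polo-like kinase of mitotic entry and exit, went from 59.2 and 60.1 CPM to 31.8 and 27.2 CPM (-1.01, SE 0.106, edgeR adjusted p 3.41e-05). BUB1 and NEK2 fell by 1.097 and 0.85 on the log2 scale.

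In anaphase control 5 of 15 genes fell and 0 rose (median -0.28). PTTG1, the securin that holds back separase, went from 26.8 and 23.6 CPM to 11 and 10.5 CPM, and CDC20, an activator of the anaphase-promoting complex, from 36.9 and 42.2 CPM to 18.6 and 18.4 CPM. UBE2C and SGO2 fell too, while the core subunits CDC16, CDC23, ANAPC1 and ANAPC5 had values between -0.02 and 0.09 and did not pass. In mitotic entry 6 of 16 fell and 1 rose (median -0.35), with 8 and 3 under the block. CCNB1, the mitotic cyclin B1, went from 71.1 and 64.5 CPM to 39.6 and 31.6 CPM (-0.93, SE 0.115, edgeR adjusted p 0.000175). CDK1, its kinase, went from 108 and 117 CPM to 76.6 and 74.3 CPM. MYBL2, a transcription factor of the same program, was the 1 gene higher, at 63.5 and 64.0 CPM and then 91.5 and 80.5 CPM (edgeR adjusted p 0.0315).

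Centromere and kinetochore genes were affected in part, with 5 of 28 lower and 0 higher (median -0.13), and 10 lower with the block. CENPE, a kinetochore motor, went from 78.1 and 71.6 CPM to 39.3 and 30.0 CPM, and NDC80, which holds the microtubule, from 77.5 and 61.4 CPM to 37.6 and 31.7 CPM. HJURP, the chaperone of the centromeric histone, fell by 0.84. CENPF fell by 0.78 in these 4 libraries (edgeR adjusted p 8.56e-05), and by 0.78 with all 8 libraries, where it did not pass without the block (0.29) and passed with it (0.013). The enzalutamide libraries differed in CENPF between replicates, with 74.4 and 174 CPM after 6 Gy.

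Promoters of genes that fell often held both a CHR and a CCAAT box. The window was again 250 bases before to 50 after the RefSeq start, TTTGAA was searched for the CHR and CCAAT for the box, each on both strands, and only protein-coding genes were taken. Neither motif contains the other, though adjoining matches can share a letter. Of 135 protein-coding genes that fell, 115 had a window. TTTGAA was in 65 of them (56.5%) against 1370 of 12847 windows of tested genes (10.7%), CCAAT in 84 (73.0%) against 36.1%, and both in 54 (47.0%) against 4.398%. Among genes of the mitotic lists TTTGAA was in 26 of 39 that fell (66.7%) and in 19 of 45 that did not pass (42.2%). In the histone list it was in 8 of 22 that fell (36.4%) and 8 of 24 that did not pass (33.3%), and CCAAT in 19 (86.4%) and 21 (87.5%). Of the 88 fallen genes other than histones, 53 held TTTGAA and 62 held CCAAT. Fewer than 80% of the genes that rose had a window, so no share is given for them.

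The last 110 bases before the start of 5 genes that fell are printed to show the motifs in place (GRCh38.p14, RefSeq, 5′ to 3′ along the gene). Capitals mark TTTGAA as well as the CCAAT box, which reads ATTGG where it lies on the opposite strand. PIF1 (chr15:64825648-64825757, minus strand), PRR11 (chr17:59155636-59155745, plus strand) and PLK1 (chr16:23678779-23678888, plus strand) hold both motifs. KIF20A (chr5:138179002-138179111, plus strand) and the histone gene H2AC14 (chr6:27814778-27814887, minus strand) hold CCAAT in this stretch without TTTGAA. For AURKA and H2BC27P no sequence is shown.
PIF1: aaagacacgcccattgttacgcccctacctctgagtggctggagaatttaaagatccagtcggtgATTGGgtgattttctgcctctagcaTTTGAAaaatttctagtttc
PRR11: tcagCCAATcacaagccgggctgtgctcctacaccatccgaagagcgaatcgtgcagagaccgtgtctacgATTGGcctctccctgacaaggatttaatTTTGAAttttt
PLK1: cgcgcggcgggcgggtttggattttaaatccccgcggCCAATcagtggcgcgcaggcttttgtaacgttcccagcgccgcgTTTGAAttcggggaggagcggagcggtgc
KIF20A: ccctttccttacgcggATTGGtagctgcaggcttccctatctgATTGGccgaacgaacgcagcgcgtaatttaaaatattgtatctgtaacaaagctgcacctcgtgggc
H2AC14: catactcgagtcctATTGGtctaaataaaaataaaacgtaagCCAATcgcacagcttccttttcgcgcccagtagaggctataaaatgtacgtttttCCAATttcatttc

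Replication-dependent histone genes, which are transcribed in S phase, were lower after 6 Gy. All 51 tested members had a value below 0, against 14526 of 27916 over all genes. Of the 51, 25 fell (49.0%, against 0.63% of all genes) and 0 rose, and the median log2 fold change was -0.50. Their summed level was 5222 and 4863 CPM in vehicle and 4136 and 3327 CPM after 6 Gy. The fall was -0.41 by median in replicate 3 and -0.58 in replicate 4. H2AC14 went from 65.8 and 67.2 CPM to 40.3 and 39.5 CPM (-0.74, SE 0.0958, edgeR adjusted p 0.000291), and H2AC4 from 54.4 and 52.8 CPM to 33.7 and 29.3 CPM. H3C2 had 161 and 113 CPM in vehicle and 88.6 and 74.9 CPM after 6 Gy (-0.74). In the 8-library model its log2 fold change was -0.73 without the block, where it did not pass (edgeR adjusted p 0.143), and -0.72 with it, where it passed (1.27e-05). The count depended on the model: 12 fell with all 8 libraries, 37 with all 8 and the block, and 18 with DESeq2. Over all genes 101, 582 (2.03%) and 110 fell in these 3 fits. Histone genes are near-identical copies, so the split of reads between single members is uncertain.

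Genes of replication licensing and the fork gave calls in the other direction. Of 45 tested, 5 rose (11.1%, against 0.992% of all genes) and 0 fell, and with the block 16 rose, where 2.56% of all genes did. Above 0 lay 42 values, against 13390 of 27916 over all genes, and the median was 0.20. TYMS, thymidylate synthase, went from 41.3 and 41.6 CPM to 88.8 and 74.6 CPM (0.98, SE 0.104, edgeR adjusted p 3.9e-05), and LIG1 from 42.1 and 44.4 CPM to 82.2 and 78.8 CPM. PCNA went from 44.4 and 46.3 CPM to 89.5 and 74.0 CPM. CDT1, a licensing factor, and GINS4, part of the helicase, were the other 2. The median was 0.28 in replicate 3 and 0.08 in replicate 4. CDT1 did not pass without vehicle replicate 3 (edgeR adjusted p 0.238). TYMS overlaps its antisense gene TYMSOS, which also rose. Of 22 regulators of the G1/S transition 2 rose, E2F1 (0.59) and E2F7 (0.73), and 2 fell, the kinase inhibitors CDKN2C (-0.64) and CDKN1B (-0.42). Each count is 9.09% of the list, against 0.992% of all genes higher and 0.63% lower. The 2 inhibitors did not pass without vehicle replicate 3 (edgeR adjusted p 0.159 and 0.346) or without irradiated replicate 3 (0.129 and 0.0738), nor did CDKN1B without irradiated replicate 4 (0.104).

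**Figure D3:**
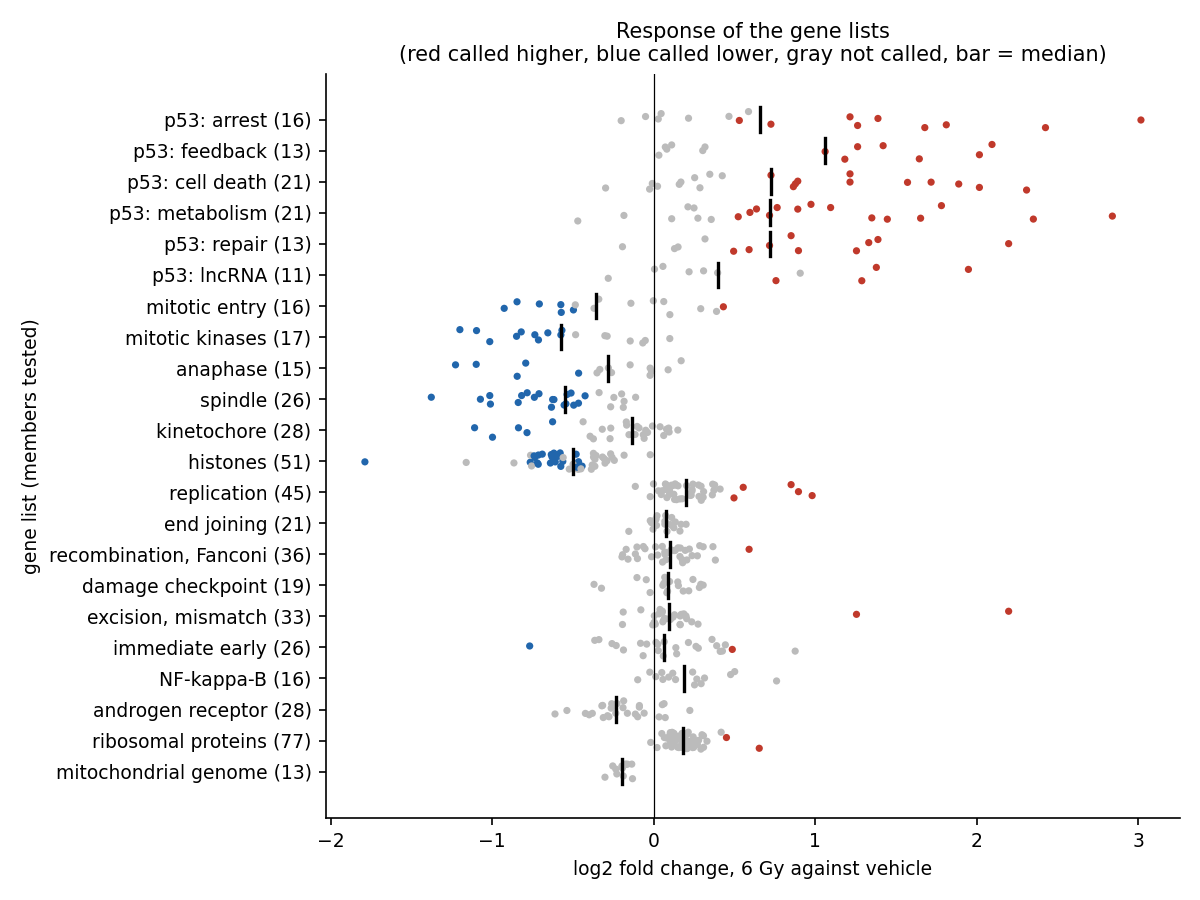
Log2 fold change after 6 Gy (x axis) of every tested member of 22 gene lists (y axis, number tested in parentheses), with members called higher in red, called lower in blue and not called in gray, and the list median as a bar. The p53 target lists lie to the right with medians from 0.40 to 1.06, the mitotic lists and the histones to the left with medians from -0.13 to -0.57, and the repair and checkpoint lists close to 0.

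The repair and checkpoint genes called were all in the p53 lists too. The 4 lists of end joining, recombination and Fanconi anemia, damage checkpoint, and excision and mismatch repair held 109 tested genes, with 3 higher (2.75%, against 0.992% of all genes), 0 lower and a median of 0.08. With the block 9 were higher and 2 lower, where 2.56% and 2.03% of all genes were. The 3 were DDB2, XPC and RAD51C, a recombination factor that went from 51.6 and 45.6 CPM to 77.5 and 68.7 CPM (0.59, edgeR adjusted p 0.00473). Of 21 end joining genes 0 passed in either direction, also with the block (median 0.07). XRCC6, the Ku70 subunit, had the smallest p among them, at 109 and 112 CPM in vehicle and 127 and 121 CPM after 6 Gy (0.16, SE 0.0876, edgeR adjusted p 0.455). In the damage checkpoint 0 of 19 passed, and WEE1, the kinase that holds back CDK1, had the smallest p (-0.37, edgeR adjusted p 0.0686). With the block 3 were higher, CLSPN, RAD9A and CDC25A, and 2 lower, WEE1 (edgeR adjusted p 0.00367) and H2AX.

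Early stress programs were read 60 min after radiation. Of 26 immediate early genes 1 rose, IER2 (0.49, edgeR adjusted p 0.0196), and 1 fell, KLF6, a zinc finger factor (-0.77, edgeR adjusted p 0.00423), each 3.85% of the list against 0.992% and 0.63% of all genes. With the block 4 were higher, IER2, JUND, IER5 and NR4A1, and 2 lower, KLF6 and MYC, where 2.56% and 2.03% of all genes were. IER2 did not pass without vehicle replicate 3 (edgeR adjusted p 0.288). FOS stood at 8.42 and 5.72 CPM in vehicle and 6.34 and 5.99 CPM after 6 Gy, with overlapping groups, and EGR1 at 3.85 and 4.59 CPM and then 5.26 and 6.30 CPM. MYC was at 287 and 269 CPM in vehicle and at 234 and 198 CPM after 6 Gy, and did not pass (-0.37, SE 0.0995, edgeR adjusted p 0.0956) except with the block (0.00358). Of 16 NF-κB subunits and early targets 0 passed (median 0.19), with 1 under the block, RELB. Of 18 interferon response genes 0 passed (median -0.16), and of 5 APOBEC3 deaminases 0 (median 0.37). In the integrated stress list 2 of 20 rose (10%), SESN2 and DDIT4, an mTOR inhibitor (0.51, edgeR adjusted p 0.00414). In the heat shock list 1 of 13 rose (7.69%), HSPA4L, a chaperone of the HSP110 family (0.84, edgeR adjusted p 0.000143). Over all genes 0.992% were higher.

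Androgen receptor targets lay mostly below 0 without passing. Of 28 tested, 0 passed in either direction, and 23 values were below 0, against 14526 of 27916 over all genes. The median was -0.23, at -0.21 in replicate 3 and -0.20 in replicate 4. With the block 8 were lower and 0 higher, where 2.03% and 2.56% of all genes were. TMPRSS2, a serine protease gene driven by the receptor, stood at 490 and 457 CPM in vehicle and at 386 and 390 CPM after 6 Gy (-0.29, SE 0.0938, edgeR adjusted p 0.196, with the block 0.0312). ZBTB16, a transcription factor, had 801 and 813 CPM and then 644 and 649 CPM (-0.32, edgeR adjusted p 0.144, with the block 0.0168). KLK3, which encodes prostate-specific antigen, had 17.1 and 13.4 CPM and then 12.01 and 8.83 CPM (-0.54, SE 0.177, edgeR adjusted p 0.197, with the block 0.0371), and shares sequence with KLK2. The groups did not overlap in these 3 genes, and the share of all genes without overlap is not given here. Of the 10 luminal markers, most of which also stand in the androgen receptor list, 0 passed and 3 were lower with the block.

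Cytosolic ribosomal protein genes and mitochondrial genes differed between the replicates. Of 77 ribosomal protein genes 2 rose (2.6%, against 0.992% of all genes), RPS19 among them, and 0 fell. Above 0 lay 76 values (median 0.18), but the median was 0.34 in replicate 3 and 0.02 in replicate 4. RPS19 went from 102 and 111 CPM to 172 and 164 CPM (0.65, SE 0.0901, edgeR adjusted p 0.000515). With the block 8 ribosomal genes rose, where 2.56% of all genes did. Of the 13 protein genes of mitochondrial DNA 0 passed, and the median of -0.19 was made of 0.09 in replicate 3 and -0.47 in replicate 4, where the vehicle library had 5240 CPM in sum against 3645 CPM in the other vehicle library. Factors of polymerase pausing and elongation gave 0 calls of 28 (median 0.08), and 0 with the block.

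Of the genes called, 217 of the higher and 103 of the lower stood in none of the 36 lists, and those named in this paragraph were chosen after their values were seen. GAS6-AS1, antisense to the growth factor gene GAS6, went from 44.1 and 57.3 CPM to 263 and 223 CPM (2.26, SE 0.123, edgeR adjusted p 1.51e-08), and GAS6 from 23.9 and 23.6 CPM to 49.4 and 51.1 CPM. PLXNB2, a semaphorin receptor, went from 69.1 and 78.1 CPM to 237 and 243 CPM, and LIF, a cytokine, from 4.69 and 5.41 CPM to 17.1 and 18.3 CPM. Among the falls, TOP2A, the topoisomerase that untangles chromosomes, went from 134 and 124 CPM to 65.7 and 57.4 CPM (-1.06, SE 0.0976, edgeR adjusted p 8.13e-06), and KPNA2, a nuclear import receptor, from 99.2 and 95.4 CPM to 54.7 and 45.6 CPM. FAM72A, FAM72B, FAM72C and FAM72D fell by 0.89 to 0.90, and are near-identical copies that may share reads. Of 391 called genes with RefSeq coordinates, 32 overlap another called gene in span, and the members of every such pair changed in the same direction. CDKN1A and DINOL, TP53INP1 and NDUFAF6, GLS2 and SPRYD4, and REV3L and TRAF3IP2-AS1 are among them, and without stated use of strand their reads cannot be told apart.

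Gene length was compared with the response over 15864 protein-coding genes, since lengths were at hand for 75.9% of all genes tested. The median log2 fold change was 0.07 for genes under 5 kb (1313 genes), 0.07 from 5 to 20 kb (4080), 0.04 from 20 to 50 kb (4370), 0.01 from 50 to 100 kb (2814) and -0.01 from 100 to 200 kb (1909). Over 200 kb (1378 genes) it was -0.12, with 78.1% of values below 0. In these genes the median was -0.14 in replicate 3 and -0.09 in replicate 4, and between -0.13 and -0.11 when each library was left out in turn. It was -0.14 in the irradiated cells with enzalutamide and 0.01 in batch 1, for which no time after radiation is recorded. These are descriptions across genes of the same libraries, and within each bin the quartiles were wider than the differences between bins.

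**Figure D4:**
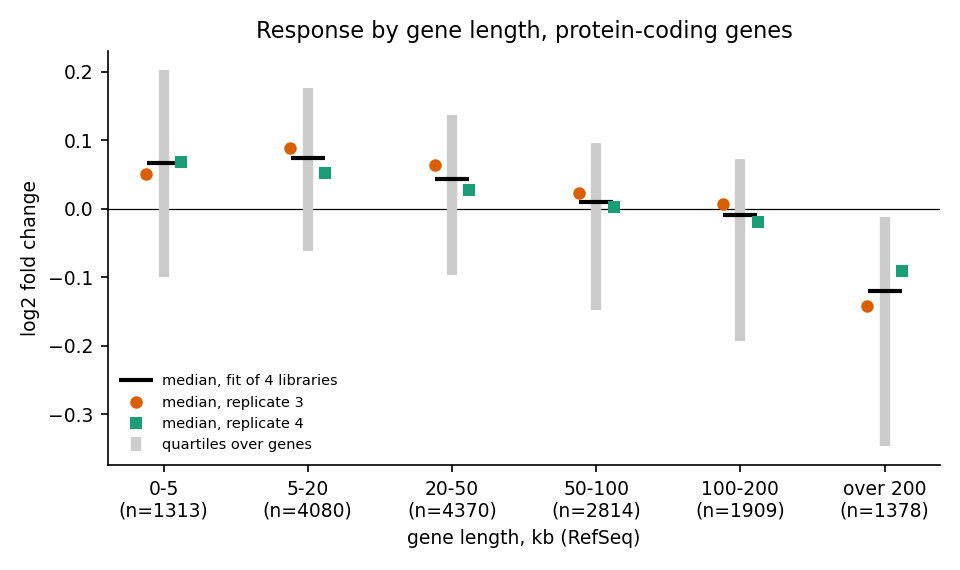
Log2 fold change after 6 Gy (y axis) of protein-coding genes by RefSeq length in kb (x axis, number of genes in parentheses), with the median of the fit as a black bar, the quartiles over genes in gray, and the medians of replicates 3 and 4 as circles and squares. The bin over 200 kb has a median of -0.12, below 0 in both replicates.

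The response was then tested for a difference from that of batch 1, with raw counts of both batches in 1 model. In batch 1 the labels give mock or 6 Gy and name no vehicle. The time from 6 Gy to collection is not recorded there, so it may differ from that in batch 2. The labels do not say what the t1 and t2 libraries of batch 1 stand for, and they were summed per replicate. Of 29195 genes, 31 passed (0.106%), 16 with a higher and 15 with a lower response in batch 1, and 1650 at an unadjusted p under 0.05. The blocked fit gave 92. Of the 277 genes that rose here, 263 of the 276 tested in batch 1 had the same direction there. The median log2 fold change was 1.01 there and 0.78 here. By edgeR 17 of the 277 differed, of which 6 responded more in batch 1, and 120 differed at an unadjusted p under 0.05. Of the 176 that fell, 165 had the same direction (median -0.63), and 0 differed by edgeR, with 40 at an unadjusted p under 0.05. The genes were chosen on batch 2.

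ABCB1 and ENSG00000286886 rose in batch 2 without a like rise in batch 1. ABCB1 had 5.72 and 4.92 CPM in mock cells of batch 1 and 5.58 and 5.78 CPM after 6 Gy, a response lower than in batch 2 by a log2 difference of -3.39 (SE 0.316, edgeR adjusted p 0.000109). ENSG00000286886 had 5.97 and 4.26 CPM in mock cells and 6.83 and 4.11 CPM after 6 Gy (-3.65, SE 0.356, edgeR adjusted p 0.000109). MDM2 responded more in batch 1, from 126 and 131 CPM to 1059 and 1168 CPM, by a difference of 0.99 (SE 0.172, edgeR adjusted p 0.0267). CDKN1A, at 3.65 against 3.02, was not shown to differ (0.60, SE 0.179, edgeR adjusted p 0.555), but passed with the block (0.0148). PIF1, at -2.44 against -2.10, was not shown to differ either (-0.37, SE 0.23, edgeR adjusted p 0.906). Levels of the batches come from tables scaled separately.

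For the difference from the response under enzalutamide, 0 of 28651 genes passed with edgeR (0%), and 343 had an unadjusted p under 0.05. DESeq2 also gave 0, with 78 at an unadjusted p under 0.05. The block gave 1 gene. Of the genes that rose in vehicle, 273 of 276 had the same direction with enzalutamide (median 0.73), and of those that fell 173 of 175 (median -0.55). CDKN1A stood at 36.0 and 56.1 CPM with enzalutamide and at 304 and 363 CPM with enzalutamide and 6 Gy, and PIF1 at 29.7 and 25.9 CPM and then 7.51 and 7.88 CPM. ABCB1 rose under enzalutamide from 11.03 and 8.90 CPM to 73.2 and 55.0 CPM, and the difference from vehicle was -0.81 (SE 0.288, edgeR adjusted p 0.9999). The values of EFEMP2 with enzalutamide were 8.75 and 9.46 CPM without and 22.8 and 22.9 CPM with 6 Gy. A p that misses the threshold does not show that the responses are alike.

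**Figure D5:**
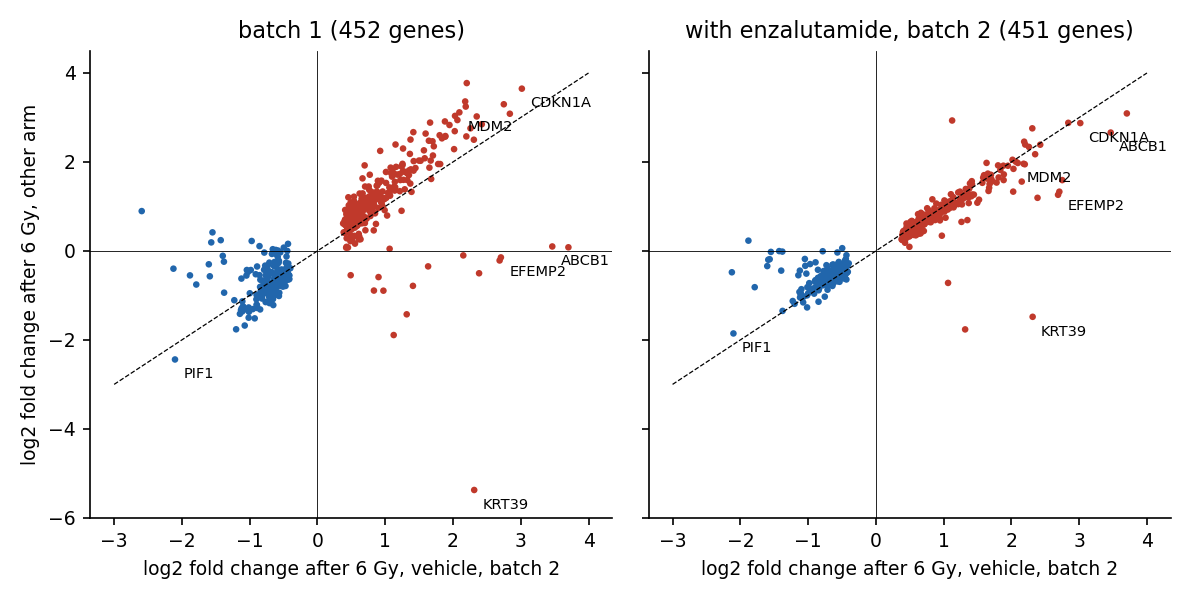
Log2 fold change of the called genes in batch 1 (left, y axis) and under enzalutamide (right, y axis) against that in vehicle cells of batch 2 (x axis), red for genes called higher and blue for genes called lower, with a dashed line of equality. On the left most red points lie above the line while ABCB1 and KRT39 lie far below it, and on the right 273 of 276 genes that rose and 173 of 175 that fell keep their direction.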

How the data were processed

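PRO-seq was measured in 16 LNCaP libraries, 4 of which make the comparison. The deposited tables, 1 per batch, hold raw counts of reads per Ensembl gene: their values are whole and their totals differ between libraries. Per the submitters' processing notes, the tools were cutadapt 1.8.1, Bowtie2 2.4.4 and SAMtools 1.9, and the build hg38. The counting tool, the annotation, the use of strand and the removal of duplicates are not given in the sources used here, so overlapping and near-identical genes are uncertain. Of 60605 identifiers 60463 (99.8%) matched a table of names.

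The main test was edgeR 4.0.16 in R 4.3.3 (filterByExpr, TMM factors, glmQLFit and glmQLFTest, two-sided, Benjamini-Hochberg adjustment over all genes tested, threshold 0.05) on the 4 libraries alone. Standard errors (SE) are of the log2 fold change. Per-replicate changes use CPM plus 0.5. Differences from batch 1 and from enzalutamide were interaction terms, which hold the 4 libraries of the main comparison on one side. The response in batch 1 and that under enzalutamide were each also fitted on their own libraries. Same-numbered libraries deviated in common: over all genes, the differences between replicates 3 and 4 correlated between groups at 0.102 to 0.262 over the 6 pairs of groups (0.106 for vehicle and 6 Gy), and the replicate numbers in the labels are where the pairing comes from. Alternatives were the block, all 8 libraries of batch 2, other scalings and filters, DESeq2 1.42.0 and leaving out each library. Where this leaves 1 library in an arm, that library is assumed to vary like the others.

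Named genes are the 10 largest rises and falls past the threshold with at least 50 counts on average and no overlap, a panel (CDKN1A, MDM2, BTG2, FDXR, BBC3, ATM, LIG1, PCNA, PLK1, AURKA, PIF1, KLK3, TMPRSS2, FOS, EGR1, MYC and a gene not reported here), up to 4 called members per list or, with none, the member with the smallest p, and up to 3 genes per direction of each difference. Other members are named to show what a list holds, after their values were seen. The members and lists were chosen with earlier results of these data known. Gene starts, lengths, coordinates and sequences are RefSeq's on GRCh38.p14, an assembly of hg38. The test was checked on simulated counts: the signs of the changed genes were recovered, and false calls stayed near the threshold with a common trend of the spread but above it when each gene had its own.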

Additional observations from a re-analysis of the deposited data

Results flagged for a closer look

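In 8 named genes the response to 6 Gy differed between batch 1 and batch 2 by the test of the difference itself, which is what singled them out. The values are log2 differences, batch 1 minus batch 2, from edgeR. The response was lower in batch 1 for ENSG00000286886, by -3.65 (SE 0.356), and for the drug pump gene ABCB1, by -3.39 (SE 0.316), each with an adjusted p of 0.000109. It was also lower for GPA33 (-2.93, SE 0.548, adjusted p 0.0464) and KRT39 (-7.71, SE 1.04, adjusted p 0.00253). KRT39, a keratin gene, stood at 60.2 and 301 CPM in mock cells of batch 1 and 3.30 and 5.24 CPM after 6 Gy, so that its batch 1 controls differ widely, and GPA33 was uneven in the irradiated libraries of batch 2.

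The response was higher in batch 1 for MDM2 (0.99, SE 0.172, adjusted p 0.0267), CLDN10-AS1 (2.58, SE 0.435, adjusted p 0.0206), FGGY-DT (1.99, SE 0.269, adjusted p 0.00253) and KPNA2P3, a pseudogene of KPNA2 (1.69, SE 0.254, adjusted p 0.00764). The last 3 did not pass in batch 2. FGGY-DT had 13.9 and 8.32 CPM in vehicle and 7.83 and 7.68 CPM after 6 Gy in batch 2, and 15.6 and 15.4 CPM in mock cells and 39.7 and 48.6 CPM after 6 Gy in batch 1. All 8 genes passed with the replicate block too. Mitochondrial genes took 3.67% to 4.62% of the counts in batch 1 and 0.66% to 0.934% in the 4 libraries of batch 2. A vehicle and a time after 6 Gy are recorded for batch 2 alone. The part of these in the differences was not tested.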

How the results depend on the processing

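The count of 453 genes was within 1.5 times of itself with all 8 libraries, RLE or total-count scaling, a mean of at least 50 counts, or DESeq2. It moved with the replicate block to 2423 (1237 higher, 1186 lower), with the block in 8 libraries to 1315 (733 and 582), and with no filter on low counts to 836 (391 higher, 445 lower). The lower genes numbered 110 with DESeq2 and 101 with all 8 libraries. Leaving out each library in turn gave 383 to 734 genes, 212 to 328 higher and 171 to 418 lower, with the highest total and count of falls without irradiated replicate 4 and 309 falls without vehicle replicate 4. Falls outnumbered rises without a filter, and without irradiated replicate 4 (316 higher, 418 lower). In every such fit 176 of the 277 and 81 of the 176 genes passed.

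For the difference from batch 1, no filter gave 119 genes (66 higher, 53 lower) and the block 92 (63 and 29). Leaving out each replicate gave 21 to 45, with 7 to 21 higher, with 7 without irradiated replicate 4 and 10 without irradiated replicate 3 of batch 2 or irradiated replicate 2 of batch 1, and 12 to 24 lower, with 24 without mock replicate 1. For the difference from enzalutamide, no filter gave 32, the block 1, and leaving out each replicate 0 to 4.

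Of 97 named genes 75 passed, and 59 of these passed under each alternative that gave an adjusted p. Reversed values were all of genes that had not passed: SYP, -0.0039 with a mean of at least 50 counts, -0.0078 with total counts and -0.15 to 0.184 leaving out each library; KPNA2P3, -0.0089, -0.0142 and -0.142 to 0.183 likewise; CLDN10-AS1 and FOS, -0.0755 to 0.246 and -0.444 to 0.113 leaving out each library. The median of the mitochondrial genes lay between -0.43 and 0.09 when each library was left out. The causes were not tested. Total-count scaling moved the median of all genes from -0.01 to -0.04. With 2 libraries per group the precision is limited by replicates, and for genes of a few CPM by depth.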
